A study of Mus musculus with 48 samples.

Results

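The 10 genes described here, Atf4, Ddit3, Atf3, Xbp1, Trib3, Chac1, Asns, Cth, Vldlr and Sesn2, belong to the integrated stress response and to the unfolded protein response that runs beside it. They were chosen by gene symbol. On the array they have 24 probe sets of 45037 besides controls, and each gene is given by its brightest probe set, called the leading one, unless another is named. All 10 leading probe sets, and 19 of the 24, lay above the median of all probe sets. NIH3T3 cells, an established mouse fibroblast line, had been grown to confluence with serum in 35 mm dishes and treated with forskolin, which activates adenylyl cyclase and brings the clocks of the cells into step. Total RNA was collected hourly, from hour 20 to hour 67 after forskolin, and 1 Affymetrix array was run for each of these 48 hours, without replicates. The arrays fall into a second cycle, hours 44 to 67, and a first cycle, hours 20 to 43, with 24 arrays each. All cells had received forskolin and no untreated cells were analysed here, so time after forskolin and time at confluence cannot be told apart. The labels do not say whether the dishes came from separate cultures, so p-values measure the spread between hourly arrays only.

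In the integrated stress response, kinases that sense misfolded protein, amino acid shortage, double-stranded RNA or lack of haem phosphorylate the translation factor eIF2α. Bulk translation falls, while the mRNA of the transcription factor ATF4 is translated more, so that ATF4 protein can change with little change of its mRNA. ATF4 raises genes of amino acid synthesis and transport, and with it the factors CHOP (the product of Ddit3) and ATF3 and the feedback inhibitor TRIB3. XBP1 belongs to another arm of the endoplasmic reticulum stress response, in which the nuclease IRE1 splices its mRNA. The array values were read as total transcript and not as spliced forms.

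Genes activated by ATF4 often carry a C/EBP-ATF response element (CARE) near their start. It was searched here as TGATGNAA on both strands, beside the cyclic AMP response element TGACGTCA, since forskolin acts through cyclic AMP, and the endoplasmic reticulum stress element, which is CCAAT and CCACG held 9 bases apart. RefSeq windows from 250 bases before to 50 bases after a start (GRCm38.p6) were at hand for 9 of the 10 genes, as 10 windows. The CARE pattern was present in windows of 5 genes, Atf3, Chac1, Asns, Vldlr and Trib3, and in 3.97% of 32851 windows of the genome. The cyclic AMP element was found in 0 of the 10 windows and in 1.79% of all, and the stress element in 0 and in 0.119%. In Trib3 the match lay after the start, at bases 15 to 22. The other 4 stretches are shown because genes with the same pattern differed in the data, with Vldlr higher in the second cycle, Atf3 and Asns lower and Chac1 not past the test. They are written 5′ to 3′ on the strand of the gene, with the CARE match in capitals. The first is chr1:191183416-191183463 on the minus strand, the second chr2:119351029-119351076 on the plus strand, the third chr6:7693210-7693252 on the minus strand and the fourth chr19:27216800-27216847 on the plus strand, before the second of the annotated Vldlr starts.
Atf3: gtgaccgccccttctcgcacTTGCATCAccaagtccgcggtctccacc
Chac1: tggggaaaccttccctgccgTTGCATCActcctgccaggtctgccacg
Asns: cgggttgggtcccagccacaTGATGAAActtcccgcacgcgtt
Vldlr: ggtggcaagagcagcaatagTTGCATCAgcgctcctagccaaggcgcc
Atf3, Chac1 and Vldlr held the same 8 bases, the reverse strand of the pattern, and Asns held the forward strand. A match of letters is a description of the window and no evidence of binding.

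The cells bore the marks of fibroblasts, with 10 of 10 fibroblast markers above the median of all probe sets, against 0 of 6 epithelial and 0 of 5 endothelial markers. Of the adipocyte markers 1 of 4 was above the median (Fabp4, with Adipoq, Cidec and Lep below), of the macrophage markers 2 of 6 and of the neuron markers 3 of 5. The summed adipocyte marker value ranged from 54217 to 82781 in the second cycle and from 30889 to 62032 in the first, and the summed macrophage value from 4880 to 8419 in the second cycle and from 6914 to 13706 in the first. The summed neuron value ranged from 29258 to 45104 in the second cycle and from 37873 to 55967 in the first. Of the adipocyte, macrophage and neuron markers above the median, Fabp4 (0.58 log2 per 24 h) and Map2 (0.44) rose by the linear trend. Snap25 (-0.40) and Cd14 (-0.40) fell, and Syn1 (-0.05) and Cd68 (-0.15) did not pass. The sums of a list thus do not stand for each of its genes. Whether these markers had a part in the results below was not tested. Since the samples are bulk RNA, fewer cells with a transcript and less of it per cell cannot be told apart. A sign of shorter RNA or cDNA, the log2 value of the 3′ β-actin probe set minus that of the 5′ one, was above 1.4 in 10 arrays (hours 20, 22, 24, 36, 38, 40, 43, 45, 46 and 67). The median of all arrays was 1.13 and the highest value 2.42, at hour 36. At hours 52 to 55 the BioB spike-in controls were 0.85 above the other arrays.

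None of the 10 genes followed a 24 h rhythm that passed the tests, and most of what moved was a slow drift. The comparison asks whether these genes cycle with the clock, at 24 h, or at its second harmonic, 12 h. By limma's F-test of a 24 h cosine, 0 of 10 leading probe sets passed at an adjusted p of 0.05, as against 0.293% of all probe sets. That share is 132 probe sets, all of them among the 22518 above the median, where the 10 genes lie. At an unadjusted p under 0.05 there were 6 of 10, beside 9.45% of all probe sets, and the share among those above the median was not computed. At 12 h, 0 of 10 passed and 0% of all did, and at an unadjusted p under 0.05 there were 0 of 10, beside 1.29% of all. The study's tests were followed with a cosine fit in the manner of COSOPT and Fisher's G-test, both at q under 0.05. By both, 0 of 10 were called at 24 h, against 0.198% of all probe sets, and 0 of 10 at 12 h, against 0% of all. Here a call also needed the G-test to peak at 24 h or 12 h, while the paper sets the period by COSOPT alone. None of the 10 had a cosine-fit q under 0.05, and the lowest was 0.076, for Cth. The G-test, which was run without removal of a trend, peaked at its longest period of 48 h in 7 of the 10 genes, and at 24 h in Atf4 alone (G-test q = 0.16). Those 7 could therefore not be called at 24 h or 12 h. The cosine fit ended at the edge of its search, 30 h, in 3 genes and lay between 20 and 30 h in 3.

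**Figure D1:**
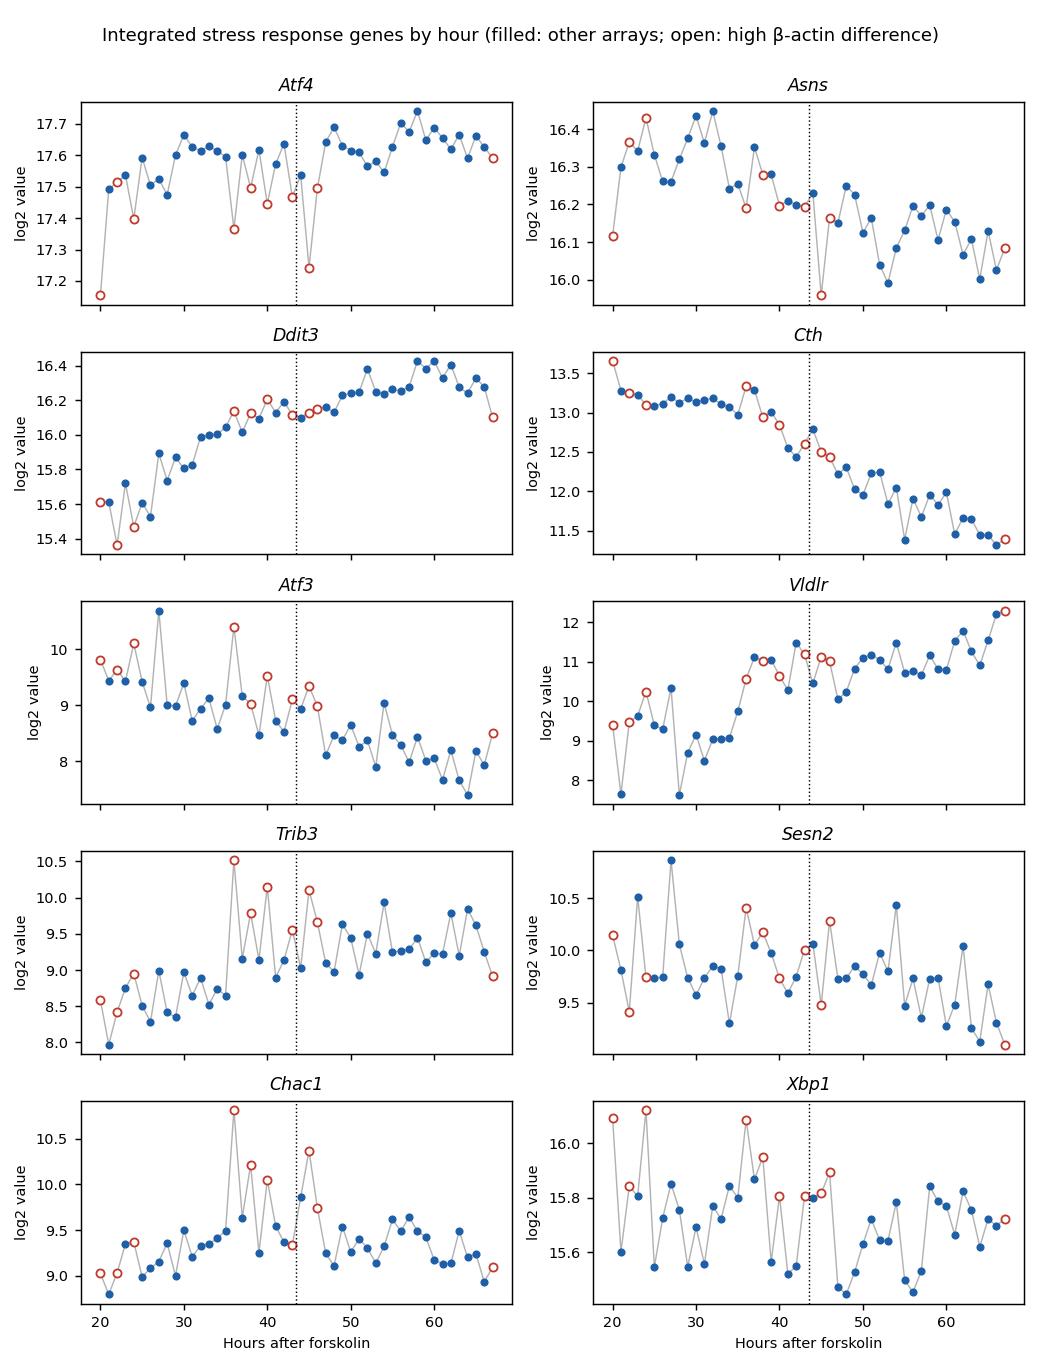
Log2 value of the leading probe set of each of the 10 genes (y axes, each with its own range) against hours after forskolin (x axes), 1 array per hour. Open red circles are the 10 arrays with a β-actin 3′ to 5′ difference above 1.4 on the log2 scale, filled circles the other 38, and the dotted line parts the first cycle from the second. Cth and Atf3 drift down, Vldlr and Ddit3 drift up, and Trib3 and Chac1 have their highest points among the open circles.

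Cth had the smallest p of the 24 h test. Its amplitude, mean to peak, was 0.16 ± 0.04 on the log2 scale (SE) with a fitted peak at hour 37.1 and an adjusted p of 0.10 by limma. Vldlr had the largest amplitude, 0.40 ± 0.13 with a peak at hour 42.8 (limma's adjusted p = 0.33), which was less than its hour-to-hour spread of 0.54. For Atf4 the amplitude was 0.06 ± 0.02 (peak at hour 31.5, adjusted p = 0.25) and for Ddit3 0.08 ± 0.03 (peak at hour 34.6, adjusted p = 0.32). Xbp1 had an amplitude of 0.08 ± 0.03 and a fitted peak at hour 39.0, and its other 3 probe sets peaked at hours 40.3, 38.6 and 39.2, with adjusted p-values by limma of 0.52, 0.68, 0.58 and 0.36 from the brightest to the dimmest. These 4 probe sets share a transcript and the same arrays. Their peaks come from a fit held at 24 h. The cosine fit of free period gave 8.1, 7.8, 8.1 and 23.1 h in the same order, none with a q under 0.05.

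The genes did not drift together. Between the cycles, taken as 24 differences of arrays 24 h apart, Vldlr, Trib3, Ddit3 and Atf4 were higher in the second cycle and Cth, Atf3 and Asns lower. That is 4 of 10 higher, beside 11.7% of all probe sets, and 3 of 10 lower, beside 12.2% of all. Among the probe sets above the median, where all 10 lie, 21.9% were higher and 21.4% lower. The linear trend gave 4 of 10 higher with time, beside 14.2% of all probe sets and 26.4% of those above the median, and 5 of 10 lower, beside 16.2% and 26.4%. Xbp1 and Sesn2, which fell by trend, did not pass between cycles. The median difference of the 10 genes was -0.05, against -0.0037 over all probe sets. In no gene did the 2 cycles separate without overlap, and the share of all probe sets in which they did was not computed. Of 14 further probe sets of these genes, 11 had the sign of their leading probe set.

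**Figure D2:**
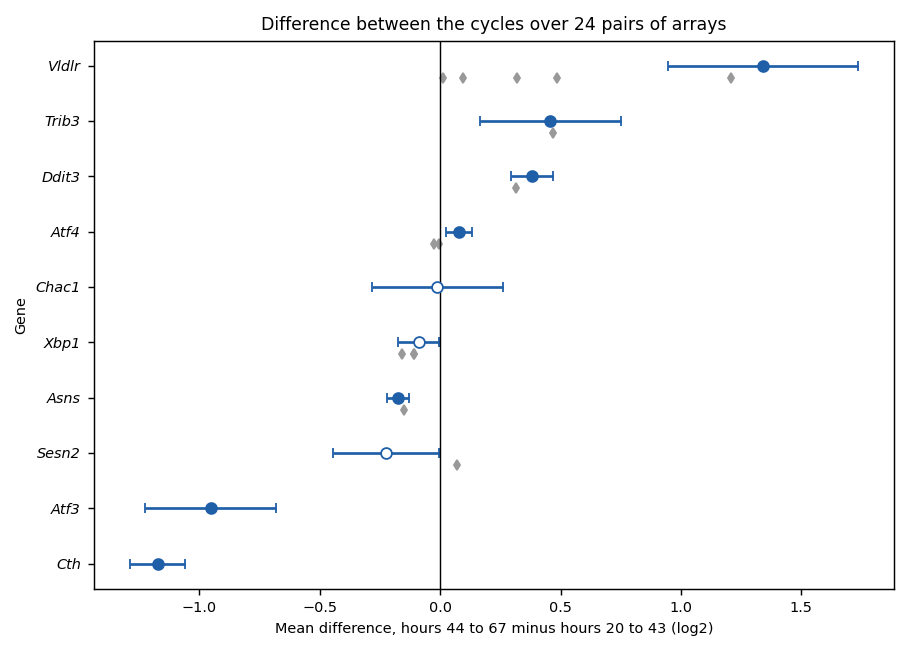
Mean of the 24 differences between arrays 24 h apart, hours 44 to 67 minus hours 20 to 43, in log2 (x axis), for each gene (y axis). Circles are leading probe sets with 95% intervals, filled where limma's adjusted p is under 0.05, and grey diamonds are the further probe sets of the gene; the differences run between -1.17 for Cth and 1.34 for Vldlr.

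Atf4 (GRCm38.p6 chr15:80255184-80257545) encodes the factor at the centre of the response. Its log2 value had a low of 17.24, a median of 17.63 and a high of 17.74 in the second cycle, against 17.15, 17.56 and 17.67 in the first. The cycles overlapped almost wholly, and the second was higher in 19 of 24 pairs. The mean difference was 0.08 ± 0.03 (SE), or 1.06-fold, with an adjusted p of 0.030 by limma and a 95% interval of 0.02 to 0.13. The second probe set of Atf4 had a difference of -0.03 ± 0.07 and was higher in 12 of 24 pairs (adjusted p = 0.77 by limma), and its name carries the _x_at mark of probes that may bind other transcripts. The third lay at the floor of the array, at a mean of 5.53. With the mean of all 3 probe sets the difference of Atf4 was 0.02 (adjusted p = 0.64).

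Atf4 was the gene most tied to array quality. Its correlation with the β-actin difference was -0.87 over the 48 arrays, and its lowest values, 17.15 at hour 20, 17.24 at hour 45 and 17.37 at hour 36, were those of the 3 arrays with the largest β-actin difference. Over the 10 arrays of high difference it ran between 17.15 and 17.59 with a median of 17.46, and over the other 38 between 17.48 and 17.74 with a median of 17.62. Of these 10 arrays, only those of hours 45, 46 and 67 lay in the second cycle. The linear trend of Atf4 was 0.094 log2 per 24 h over all arrays. It was 0.050 without the 10 arrays and 0.055 with the β-actin difference as covariate, and passed limma's test each time.

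Ddit3 (chr10:127290793-127296291) encodes CHOP, a factor linked to cell death under lasting stress. It ran between 16.10 and 16.43 with a median of 16.25 in the second cycle, against 15.36 to 16.21 with a median of 15.94 in the first. The cycles overlapped only at the top of the first, and the second was higher in 23 of 24 pairs. The difference was 0.38 ± 0.04, or 1.30-fold (adjusted p = 1.2e-07 by limma). The climb fell in the early hours. The mean of 6 arrays was 15.56 ± 0.13 (SD) for hours 20 to 25, 15.78 ± 0.13 for hours 26 to 31, 16.03 ± 0.06 for hours 32 to 37 and 16.14 ± 0.04 for hours 38 to 43. After that the means of 6 h lay between 16.15 and 16.35. The second probe set was also higher in 23 of 24 pairs, by 0.31 ± 0.05. The leading probe set of Ddit3 had a correlation of -0.21 with the β-actin difference, and the second one of -0.62. The detrended correlation of the second with the leading one was only 0.14.

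Atf3 (chr1:191170296-191183333) encodes a factor that is induced by many kinds of stress and by growth signals. It ran between 7.41 and 9.34 with a median of 8.28 in the second cycle, against 8.47 to 10.68 with a median of 9.11 in the first. It was lower in the second cycle in all 24 pairs. The difference was -0.95 ± 0.13, so that the second cycle had 0.516 of the first (adjusted p = 3.6e-06 by limma). The fall was spread over the whole course, with a mean of 9.64 ± 0.28 for hours 20 to 25, 8.90 ± 0.40 for hours 38 to 43 and 7.98 ± 0.40 for hours 62 to 67 (SD, 6 arrays each). Its highest single values were 10.68 at hour 27 and 10.40 at hour 36, each more than 1 above both neighbouring hours. The gene has 1 probe set.

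Xbp1 (chr11:5520641-5525993) encodes the factor that raises folding and degradation genes of the endoplasmic reticulum. It ran between 15.45 and 15.89 with a median of 15.71 in the second cycle, against 15.52 to 16.12 with a median of 15.78 in the first. The cycles overlapped, and the second was higher in 7 of 24 pairs. The difference of -0.09 ± 0.04 did not pass (adjusted p = 0.11 by limma, 95% interval -0.18 to -0.0030), while the trend of -0.11 ± 0.04 per 24 h did (adjusted p = 0.031). All 4 probe sets fell by the trend test, and 2 of the 4 by the difference between cycles. Detrended, the other 3 correlated with the first at 0.77 to 0.91 over the 48 arrays. The 5 highest values of Xbp1 all came from arrays of high β-actin difference, and without those 10 arrays the trend was -0.05 (adjusted p = 0.30 by limma).

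**Figure D3:**
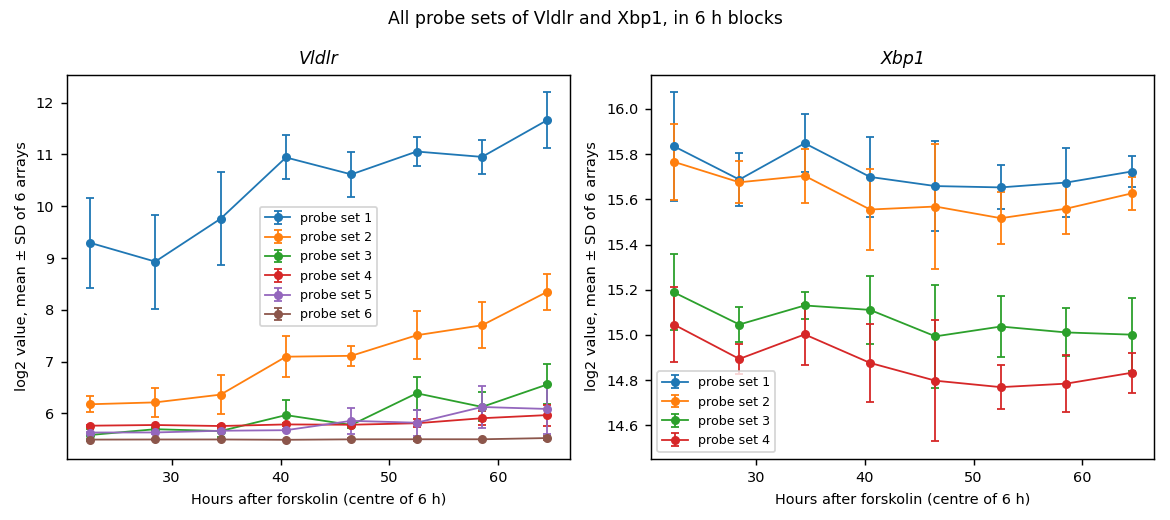
Mean log2 value of 6 consecutive arrays with SD bars (y axes) against hours after forskolin (x axes) for the 6 probe sets of Vldlr and the 4 of Xbp1, numbered from the brightest. All 6 probe sets of Vldlr end higher than they begin, the dimmest only from 5.50 to 5.53, and the 4 of Xbp1 follow one another between 14.77 and 15.85.

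Trib3 (chr2:152337425-152344060) encodes a pseudokinase that is raised by ATF4 and CHOP and holds back ATF4. It ran between 8.91 and 10.10 with a median of 9.26 in the second cycle, against 7.97 to 10.52 with a median of 8.82 in the first. The ranges overlapped, with both the lowest and the highest array in the first cycle, and the second cycle was higher in 20 of 24 pairs. The difference was 0.46 ± 0.14, or 1.37-fold (adjusted p = 0.019 by limma). Its second probe set had a difference of 0.47 ± 0.17 (adjusted p = 0.042) and a detrended correlation of 0.79 with the first. The change lay between hours 20 to 31, with means of 8.53 ± 0.33 and 8.61 ± 0.31 over 6 arrays each, and the later hours, with means of 6 h between 9.08 and 9.44. Without hours 20 to 25 the difference was 0.31 and no longer passed (adjusted p = 0.16 by limma), and with a term for hours 52 to 55 it was 0.37 (adjusted p = 0.090).

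Chac1 (chr2:119351242-119354326) encodes an enzyme that breaks down glutathione and is a target of ATF4. It ran between 8.93 and 10.37 with a median of 9.31 in the second cycle, against 8.80 to 10.82 with a median of 9.35 in the first. The cycles overlapped throughout and 12 of 24 pairs were higher. The difference was -0.01 ± 0.13 with a 95% interval of -0.28 to 0.26 (adjusted p = 0.94 by limma). It turned to 0.04 once the 10 arrays with a high β-actin difference were left out. The 4 highest values, 10.82 at hour 36, 10.37 at hour 45, 10.21 at hour 38 and 10.05 at hour 40, were all from those arrays.

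Asns (chr6:7675165-7693209) encodes asparagine synthetase, a long-known ATF4 target of amino acid shortage. It ran between 15.96 and 16.25 with a median of 16.13 in the second cycle, against 16.12 to 16.45 with a median of 16.29 in the first. The ranges overlapped over a narrow band, and the second cycle was higher in 1 of 24 pairs. The difference was -0.17 ± 0.02, so that the second cycle had 0.886 of the first (adjusted p = 1.3e-06 by limma). The second probe set agreed in size, at -0.15 ± 0.03 and higher in 1 of 24 pairs. The change was small, with an hour-to-hour spread of 0.06.

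Cth (chr3:157894248-157925081) encodes cystathionine gamma-lyase, which makes cysteine from methionine by way of cystathionine. It had the clearest fall of the 10. It ran between 11.32 and 12.79 with a median of 11.93 in the second cycle, against 12.44 to 13.66 with a median of 13.12 in the first. It was lower in the second cycle in all 24 pairs, although the ranges overlapped. The difference was -1.17 ± 0.06, which left 0.443 of the first cycle (adjusted p = 3.5e-14 by limma). The course had a plateau and then a steady fall. The means of 6 h were 13.27 ± 0.21, 13.15 ± 0.03 and 13.16 ± 0.14 up to hour 37, then 12.73 ± 0.23, 12.38 ± 0.26, 11.95 ± 0.32, 11.80 ± 0.20 and 11.48 ± 0.14 (SD, 6 arrays each). So Asns and Cth, both enzymes of amino acid supply, fell by very different amounts. Cth has 1 probe set.

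Vldlr (chr19:27216480-27254231) encodes the very low density lipoprotein receptor, which takes up lipoproteins and is raised by ATF4 in stressed cells. It had the widest range of the 10, with its highest array 25.4-fold above its lowest. It ran between 10.04 and 12.29 with a median of 11.03 in the second cycle, against 7.63 to 11.48 with a median of 9.55 in the first. The second cycle was higher in 23 of 24 pairs. The difference was 1.34 ± 0.19, or 2.53-fold (adjusted p = 5.8e-06 by limma). The values rose over hours 34 to 37, which read 9.07, 9.74, 10.56 and 11.12, but hours 24 and 27 had already read 10.24 and 10.33. Hours 24 and 36 are arrays of high β-actin difference. The mean was 9.29 ± 0.87 for hours 20 to 25, 10.94 ± 0.42 for hours 38 to 43 and 11.66 ± 0.54 for hours 62 to 67 (SD, 6 arrays each). Of 6 probe sets, 5 passed, and the second in brightness rose in all 24 pairs by 1.21 ± 0.11. The other 4 lay below the median of all probe sets, and 3 of the 5 that passed had means of only 5.97, 5.82 and 5.81, close to the floor. Its brightest probe set carries the _x_at mark. With the mean of all 6 probe sets the difference was 0.58. The detrended correlation of the first and second probe sets was only 0.26, so they shared the rise and not the changes from hour to hour.

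Sesn2 (chr4:132492804-132510456) encodes a leucine sensor that restrains the growth kinase complex mTORC1. It ran between 9.10 and 10.43 with a median of 9.73 in the second cycle, against 9.30 to 10.86 with a median of 9.78 in the first. The difference of -0.23 ± 0.11 did not pass (adjusted p = 0.12 by limma, 95% interval -0.45 to -0.0036), and 7 of 24 pairs were higher. The trend of -0.24 ± 0.09 per 24 h passed (adjusted p = 0.037). The second probe set went the other way without passing, with a trend of 0.12 ± 0.07 and an adjusted p of 0.12. The highest value of Sesn2 was 10.86 at hour 27, the array on which Atf3 also had its highest value.

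The 24 h cosine differed between cycles, in size or phase, in 3 of 10 genes. The F-test takes size and phase together, so the adjusted p-values below are not of amplitude alone. The fit held a common linear slope, so curved drift within a cycle and a change of the cosine cannot be told apart. The count stands beside 49.0% of all probe sets and 21.7% of those above the median, so it is near or below the background. The background itself moved with the processing, to 14.8% of all probe sets after quantile normalization, 3.81% after centring and 1.82% with a term for hours 52 to 55, and 2 of the 10 genes passed under each. The amplitude of Ddit3 was 0.08 ± 0.03 in the second cycle and 0.18 ± 0.04 in the first (adjusted p = 0.0020 by limma). For Cth it was 0.11 ± 0.06 in the second cycle and 0.33 ± 0.06 in the first (adjusted p = 0.0025), and for Chac1 0.08 ± 0.12 and 0.54 ± 0.12 (adjusted p = 0.0087). The highest Chac1 values of the first cycle, at hours 36, 38 and 40, came from arrays of high β-actin difference. Its 24 h amplitude over both cycles was 0.17, and 0.09 without the 10 arrays of high difference.

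Hour by hour, once the linear drift was taken out, some genes moved together. Of 45 pairs, 6 had a correlation over 0.5 and 2 had one below -0.5, and the shares among pairs of all genes were not computed. The values below are descriptions over 48 arrays, which share RNA quality and normalization. Trib3 and Chac1 had the highest, 0.75, and Atf4 and Asns came next at 0.74. Atf4 ran against Xbp1 at -0.58 and against Trib3 at -0.51. Over the 38 other arrays, those with a low β-actin difference, Trib3 and Chac1 had 0.25, Atf4 and Asns 0.71, Atf4 and Xbp1 -0.24 and Atf4 and Trib3 -0.09. Over those arrays 4 pairs were over 0.5 and 0 below -0.5, with Atf3 and Sesn2 at 0.67 and Trib3 and Sesn2 at 0.56. After detrending, the arrays of high β-actin difference averaged 0.55 higher in Trib3, 0.40 in Chac1, 0.57 in Atf3, 0.78 in Vldlr and 0.22 in Xbp1, and their difference was -0.17 in Atf4.

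**Figure D4:**
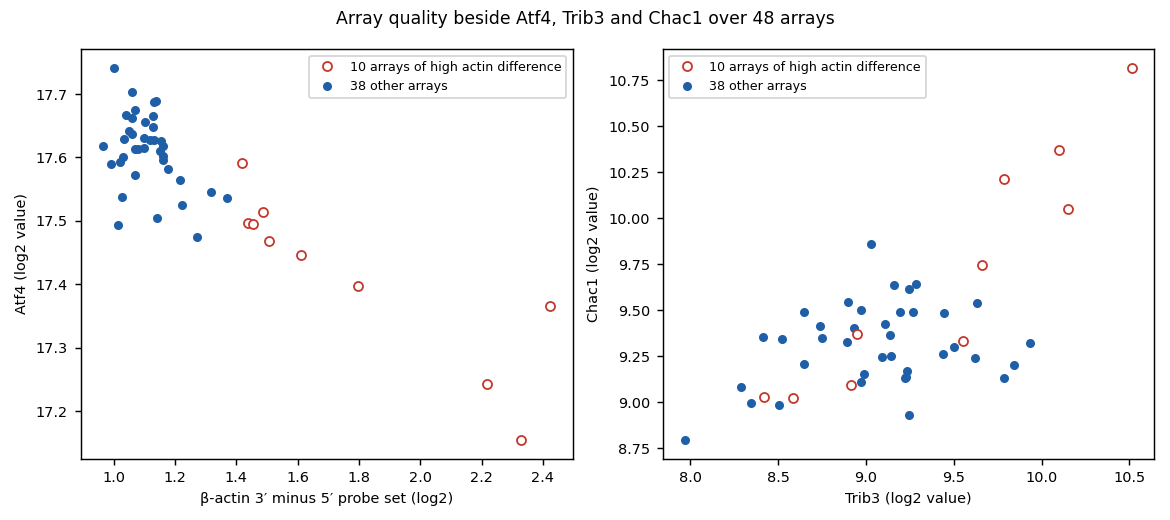
Left, log2 value of Atf4 (y axis) against the 3′ minus 5′ value of β-actin in log2 (x axis). Right, log2 value of Chac1 (y axis) against that of Trib3 (x axis); each point is 1 of 48 arrays, open for the 10 arrays of high β-actin difference, and the highest Trib3 and Chac1 values, 10.52 and 10.82 at hour 36, are open.

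Outside the 10 genes themselves, the genes most like each by detrended correlation, 3 for each and over 10356 genes above the median, were as follows. Ddit3 was followed by Trem2 (0.85), Gadd45a (0.80), a growth arrest gene, and Acot13 (0.79). Atf4 was nearest to Rsl1d1, Mrpl48 and Txndc9, at 0.92 each. Atf3 was nearest to Trim47 (0.84), Stat6 (0.81) and Armcx1 (0.80). Xbp1 was nearest to Pcbp3 (0.81), Tmem230 (0.80) and Ms4a4d (0.80). Trib3 was nearest to Myof (0.86), Ruvbl1 (0.85) and Ecm1 (0.85). Chac1 was nearest to Zfp768 (0.81), Col5a3 (0.79) and Idh2 (0.78). Asns was nearest to Cops5 (0.73), Nars (0.73) and Tpm2 (0.71), all below its correlation of 0.74 with Atf4. Cth was nearest to Prkca (0.70), Tmcc3 (0.63) and Nectin2 (0.62). Vldlr was nearest to Pld1, Ube2o and Glis2 (0.66, 0.66 and 0.65). Sesn2 was nearest to Rela (0.77), Ldb1 (0.75) and Mapkapk2 (0.74). Of these 30 genes, 19 correlated with the β-actin difference by more than 0.5 in size, and the share over all genes was not computed.

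Beyond the 10 genes, 8 lists of pathway genes held 128 genes, of which 125 were measured. By the trend, 31 of the 125 rose and 35 fell, beside 14.2% and 16.2% of all probe sets and 26.4% each way of those above the median, where 114 of the 125 lie. The counts are thus near that background. At 24 h 6 passed, all of them in the list of XBP1 and ATF6 targets. Of all probe sets 0.293% passed, which is 132, all of them among the 22518 above the median. At 12 h 0 of the 125 passed, beside 0% of all. Among the kinases, eIF2 and its phosphatase, 3 of 15 rose and 5 fell, near the 26.4% each way above the median, where all 15 lie. The strongest were Eif2b5 (a slope of -0.31 ± 0.04 log2 per 24 h), which encodes a subunit of the eIF2 exchange factor, Gcn1 (-0.20 ± 0.05), an activator of the kinase GCN2, Eif2ak3 (0.12 ± 0.04), the kinase PERK, and Eif2b1 (-0.11 ± 0.03).

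For the lists that follow, the same shares are the background, 14.2% higher and 16.2% lower over all probe sets and 26.4% each way above the median. Among the partner factors 4 of 12 rose and 3 fell, and 9 of the 12 lie above the median. Nupr1, a small stress-induced chromatin protein, had a slope of 1.07 ± 0.04 and was higher in all 24 pairs, with a median of 16.43 in the second cycle and 15.37 in the first. Maff (-0.75 ± 0.11) and Cebpb (-0.52 ± 0.08), a C/EBP factor, fell, and Atf5 (0.31 ± 0.03), another ATF factor, rose. Of the enzymes of amino acid synthesis and one-carbon metabolism, 5 of 13 rose and 6 fell, and 12 of the 13 lie above the median. The mitochondrial folate enzymes Mthfd1l (-0.66 ± 0.06) and Mthfd2 (-0.33 ± 0.04) fell, and the aminotransferases Got1 (0.33 ± 0.05) and Gpt2 (0.21 ± 0.02) rose. Of the amino acid transporters 3 of 11 rose and 5 fell, led by Slc1a5 (0.35 ± 0.04), Slc6a9 (0.29 ± 0.03), Slc7a3 (-0.24 ± 0.07) and Slc43a1 (-0.22 ± 0.06). Of the aminoacyl-tRNA synthetases 1 of 14 rose, Sars1 (0.20 ± 0.03), and 6 fell, led by Iars1 (-0.32 ± 0.05), Vars1 (-0.31 ± 0.08) and the tRNA exporter Xpot (-0.14 ± 0.03).

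Of the other ATF4 and CHOP targets 9 of 23 rose and 3 fell, with 18 of the 23 above the median, where 26.4% of probe sets rose and 26.4% fell (14.2% and 16.2% over all). Cdsn, an adhesion protein of the skin, had the largest slope, -2.68 ± 0.18, with a median of 9.52 in the second cycle and 12.34 in the first. Stc2 (0.66 ± 0.09), a secreted glycoprotein, Bcl2l11 (0.56 ± 0.04), the death activator BIM, and Herpud1 (0.26 ± 0.05), a degradation factor of the endoplasmic reticulum, rose. Of the sensors and processors of the unfolded protein response 2 of 11 rose and 2 fell. Creb3l1 (0.95 ± 0.11) and Atf6 (0.23 ± 0.03) rose, and Atf6b (-0.19 ± 0.07) and Creb3l2 (-0.14 ± 0.02) fell. Of the XBP1 and ATF6 targets, 4 of 26 rose by trend and 5 fell, both below the 26.4% each way above the median, where all 26 lie, with Edem1 at 0.18 ± 0.05, Syvn1 at -0.18 ± 0.03, Sel1l at 0.13 ± 0.02 and Dnajc3 at 0.11 ± 0.04. Its 24 h genes with the largest amplitude were Sdf2l1 (0.39, peak at hour 39.3), Creld2 (0.19, hour 39.4), Pdia6 (0.16, hour 41.1) and Manf (0.16, hour 38.9), beside the peak of Xbp1 at hour 39.0, which did not pass. The cosine fit of free period gave 8.1 h for the leading probe set of Xbp1.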

How the data were processed

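Total RNA of 48 hourly samples of forskolin-treated NIH3T3 cells had been hybridized to Affymetrix mouse arrays. The deposited table holds linear intensity values per probe set, which the authors had normalized. The methods name GCRMA for expression and MAS5 for present calls, and the processing notes name MAS5 only. Tool versions and any scaling constant are unknown here. Intensities were taken to log2 with no added constant or filter. The 64 control probe sets were left out of all tests.

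Amplitudes, slopes and cycle differences were fitted in limma (3.58.1, under R 4.3.3), and p-values were adjusted by Benjamini-Hochberg over 45037 probe sets and read at 0.05. Each ± is the SE of the fit unless an SD is named. The cosine fit in the manner of COSOPT used periods of 6 to 30 h in steps of 0.1 h after linear detrending, with p-values from 1000000 Gaussian series, and Fisher's G-test was exact over 23 periods, both with Storey q-values (spline of 3 degrees of freedom). A 24 h call needed a fitted period over 20 and under 30 h and a G-test peak at 24 h. A 12 h call needed a fitted period over 10 and under 14 h and a G-test peak at 12 h. Other steps ran in Python 3.11.15 (scipy 1.17.1, numpy 2.4.6, pandas 2.3.3), with plots by matplotlib 3.10.9. The 24 h, 12 h and trend tests, the cosine fit and the G-test were checked on simulated series of independent Gaussian noise. The cosine change was checked there for false calls only, and the cycle difference was not checked.

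Members and gene lists were chosen with earlier results of these data known. The genes named were all members by their leading probe set, the 3 closest genes of each, and from each list up to 4 past the 24 h test and up to 4 past the trend test, largest change first. Alternatives were quantile normalization, median centring, an added 64, brighter probe sets only, arrays of high β-actin difference left out or as a covariate, a term for hours 52 to 55, hours 20 to 25 left out, all probe sets of a gene averaged, a quadratic trend, 6 h means, rank correlation, another q-value method and each array left out. Precision is limited by the number of arrays.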

Additional observations from a re-analysis of the deposited data

Results flagged for a closer look

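A change of the 24 h cosine, in size or phase, was tested between the second and the first cycle. It passed limma's test in Ddit3 (adjusted p = 0.00196), Cth (adjusted p = 0.00252) and Chac1 (adjusted p = 0.00866). In all 3 the fitted amplitude was smaller in the second cycle, 0.08 against 0.18 in Ddit3, 0.11 against 0.33 in Cth and 0.08 against 0.54 in Chac1. The fit held a common linear slope, so curved drift within a cycle and a change of the cosine cannot be told apart. Ddit3 climbed early, Cth fell after a plateau, and the highest Chac1 values came from arrays of high β-actin difference. The same test called 49.0% of all probe sets and 1.82% of them with a term for hours 52 to 55, and what lies behind it was not tested.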

How the results depend on the processing

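Counts of the 10 genes that passed were within 1.5 times of the reported count under every alternative apart from those named here. With the cosine fit alone at q under 0.1, 3 genes were called at 24 h, beside 6.09% of all probe sets. Leaving out single arrays gave 0 genes at 24 h and at 12 h, 7 to 9 by trend, 6 to 7 between cycles and 3 to 5 by change of the cosine. The count of 5 arose without hour 24, 27, 41, 45, 47, 48 or 62, where Trib3 and Vldlr also passed. The trend of Sesn2 no longer passed without any one of hours 20, 23, 36, 38, 55, 63, 64 and 67 (adjusted p up to 0.066), that of Xbp1 without hour 20, 24 or 36 (up to 0.092), and the cycle difference of Atf4 without hour 20, 24, 36, 44, 48 or 60 (up to 0.055).

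For single genes, 279 values kept direction and side of the threshold, 15 lost the call, 1 gained it, 6 changed sign and 3, all of them correlations between genes, moved. All 6 that changed sign were of Chac1, whose slope and cycle difference did not pass at any setting. Its slope was 0.0282 without the 10 arrays in which the β-actin difference was high, 0.0435 with that difference as covariate and 0.0248 over 6 h means, and its rank correlation with hour was 0.0736. Its cycle difference was 0.0410 without the 10 arrays and 0.0768 with the covariate. The trend of Atf4 was lost with the mean of its probe sets and over 6 h means, that of Trib3 without hours 20 to 25, and those of Xbp1 and Sesn2 without the 10 arrays or with the covariate, among others. The share of all probe sets past the 24 h test was between 0.118% and 0.990%, against 0.293% as reported. The cycle difference of Ddit3, Atf3, Asns, Cth and Vldlr passed under every alternative. The cause was not tested. Without the 10 arrays, chosen as an alternative after seeing the data for the pairs, the correlation of Trib3 and Chac1 was 0.25, against 0.75 over all arrays, that of Atf4 and Xbp1 -0.24, against -0.58, and that of Atf4 and Trib3 -0.09, against -0.51. Arrays were paired by hour, 24 h apart, in the cycle test. By replicate number, no paired analysis was possible because there is 1 array at each hour and the groups share no replicate number.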
